A study of Gallus gallus with 7 samples.

Results

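A group of 252 chick genes was present at about 1.73 times the level in 4 of 7 limb bud libraries (control 1, control 2, mimic 1 and mimic 2) compared with the other 3 (control 3, control 4 and mimic 3). These 252 genes were chosen by their measured values, from 10769 genes with a mean normalized count of 100 or more over the 7 libraries, out of 17190 genes in all. A gene was a member if its mean log2(value + 0.5) in the first 4 libraries exceeded that in the other 3 by 0.5 to 1.1, and if its lowest value in the first 4 libraries lay above its highest value in the other 3. The split is therefore what the choice used, and it is given here as a description with no test. The split of the libraries into a first kind (those 4) and a second kind (those 3) also came from measured values and appears in none of the sample labels.

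The libraries were made from limb buds of wild-type chicks. The series record gives an injection at Hamburger Hamilton stages 18 to 19 and a harvest by dissection 24 hours later, at stages 24 to 25. The sources differ on the stage of injection, which is later in the published account. The control group received a control mimic (n = 4) and the other group a miR-455-3p mimic (n = 3), which is a synthetic form of this microRNA, in order to follow how raising it altered gene expression in the growing limb. The sources do not say whether the libraries came from separate embryos or from pools, so every p-value measures only the spread between these libraries.

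In birds the male carries a pair of Z chromosomes and the female a single Z and a W. Dosage compensation of Z genes in chickens is incomplete, so that many of them are expressed at higher levels in males, at a ratio somewhat under the ratio of the gene copies, whereas W genes are expressed only in females. A microRNA binds mRNAs through its seed and lowers their level or their translation, and miR-455-3p is known from cartilage and the developing skeleton. These statements are background. The gene identifiers were not paired with symbols or chromosomes here, since 0 of them matched the 25635 genes of the gene table used, so neither a position of the members on the Z chromosome nor markers of limb bud tissue could be checked, and the members have no names or roles in this account.

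The depth of the libraries, estimated from what 1 read was worth in each, was 14879929 to 21363143 reads, and their normalized totals ran from 17763649 to 18410166. The genes that were not members had the same median level in both kinds, within -0.0047 to 0.018 on the log2 scale around the first kind's mean. A set of 22 genes that were nearly off in the first kind summed to between 3.94 and 9.39 normalized counts there and to between 23463 and 25070 in the second kind, and these genes were chosen by the same split of the libraries, so their sums are a description too.

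The summed level of the 252 members was 396374 normalized counts in control 1, 400484 in control 2, 408689 in mimic 1 and 406755 in mimic 2. It was 218874 in control 3, 234600 in control 4 and 230649 in mimic 3. The members thus took 2.21% to 2.28% of all normalized counts in the first kind and 1.21% to 1.30% in the second, with no library between. Each kind held libraries of both treatments, and mimic 1 and mimic 2 had the highest sums of the first kind while mimic 3 lay between the control libraries of the second. By the median the order of the treatments was not that of the sums. The typical member had a median level of 880, 842, 804 and 751 in control 1, control 2, mimic 1 and mimic 2, and of 477, 496 and 454 in control 3, control 4 and mimic 3. In bulk tissue fewer cells that express a gene and less RNA per cell cannot be told apart.

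**Figure D1:**
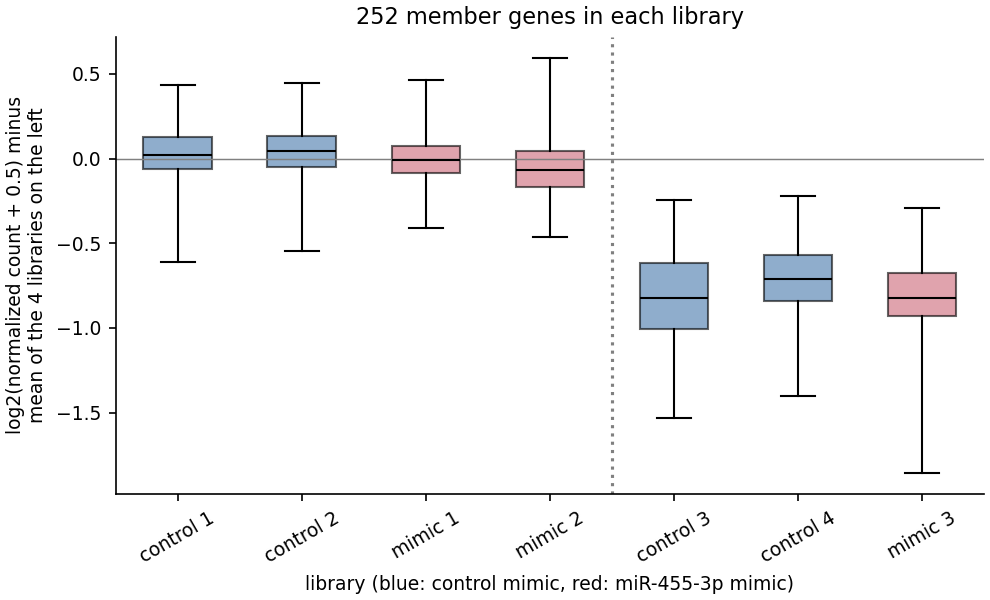
Log2 difference of each of the 252 members from its mean over control 1, control 2, mimic 1 and mimic 2, for each of the 7 libraries, with boxes at the quartiles and whiskers over the full range. The medians lie between -0.070 and 0.042 in the first kind, and at -0.82 in control 3, -0.71 in control 4 and -0.82 in mimic 3.

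Among members with a mean level of 1000 or more, the one nearest the median difference was ENSGALG00000014891, with 2722 and 2602 normalized counts in control 1 and control 2, 2629 and 2983 in mimic 1 and mimic 2, 1478 and 1576 in control 3 and control 4, and 1695 in mimic 3. Its lowest value in the first kind stood well above its highest in the second, and its log2 difference was 0.79, a ratio of 1.73. Differences between the kinds are those of plain means, without a treatment term. Mimic libraries were a larger share of the first kind, so a response to the mimic enters them. The SEs given with them belong to the kind term of a linear model with the treatment and the kind as terms. For this gene the SE of the kind term was 0.067. The member with the highest mean level, 25973, was ENSGALG00000015082. It had 28381, 26489, 37090 and 36580 normalized counts in control 1, control 2, mimic 1 and mimic 2. In control 3, control 4 and mimic 3 it had 17004, 15972 and 20297. Its log2 difference was 0.85, a ratio of 1.80, and the SE of its kind term was 0.063. In this gene the mimic libraries were the highest of each kind, yet the kinds did not overlap.

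Across the members the log2 difference had a median of 0.79, quartiles of 0.65 and 0.90 and an SD between members of 0.16, which gives ratios of 1.73 (quartiles 1.56 and 1.87, range 1.42 to 2.13). The SE of the kind term for a single member had a median of 0.102. The bounds of the choice limit the SD between members, and differences between single members were not tested. The 10517 genes with a mean of 100 or more that were not members had a median difference of -0.0073, with quartiles of -0.097 and 0.085. The median over all 10769 genes was -0.0034, close to 0 beside the difference of the members.

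The bounds of the choice cut through a continuous range at the lower end and a sparse one at the upper end. Without bounds, 488 genes were higher in all libraries of the first kind, 225 of them by less than 0.5 and 11 by more than 1.1. The member with the smallest difference stood at 0.501 and the next gene below the bound at 0.496, while the member with the largest difference stood at 1.09 and the next gene above at 1.102. There were 42 members between 0.5 and 0.6 against 44 genes between 0.4 and 0.5, and 23 members between 1.0 and 1.1 against 9 genes between 1.1 and 1.2. A further 79 genes had a difference within the bounds but overlapping kinds, and 52 met all conditions except the mean level. The members' own gap, the lowest of the first 4 values over the highest of the other 3, ran from 1.01 to 1.90 with a median of 1.36.

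The mirror image of the same choice, lower in the first kind by 0.5 to 1.1 without overlap, held 44 genes with a median difference of -0.69. Of the 317 genes that were lower in every library of the first kind, 32 differed by more than 1.1, which includes genes that were nearly off in that kind. The range of 0.5 to 1.1 was thus filled by 252 genes in one direction and 44 in the other. No test applies to these counts, since the library kinds were read from the same values.

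**Figure D2:**
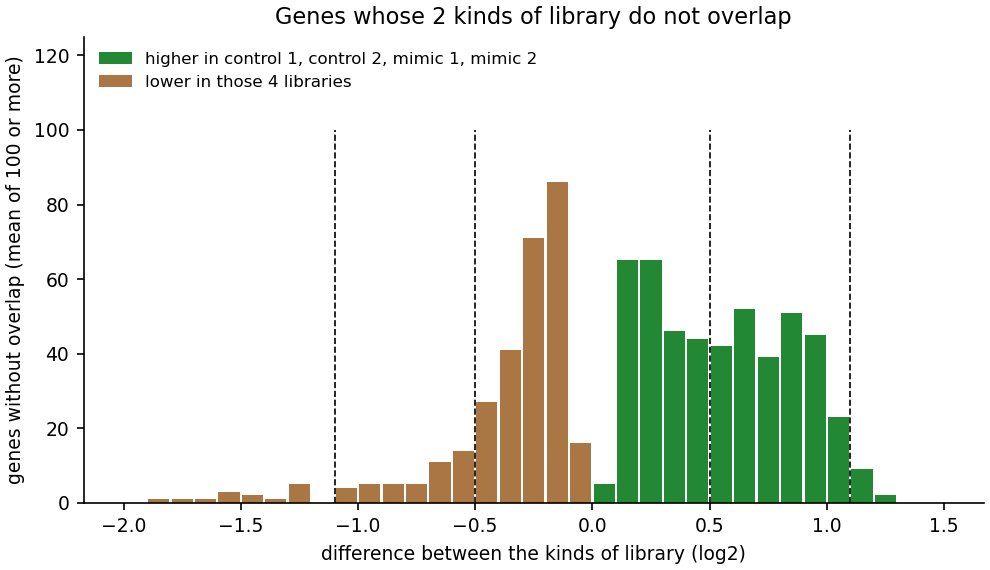
Number of genes (vertical axis) by log2 difference between the first and the second kind (horizontal axis), for genes with a mean of 100 or more whose kinds did not overlap, higher or lower in the first kind, with dashed lines at the bounds of 0.5 and 1.1 in both directions. The higher side holds 252 genes within the bounds and the lower side 44, and 18 genes lie outside the plotted range of -2 to 1.5.

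The difference was also set out by expression level, although the bounds of the choice hold it to 0.5 to 1.1 at every level, so that like medians are largely given by the rule. Members numbered 59 of 2206 genes (2.67%) at a mean of 100 to 300, 100 of 4160 (2.40%) at 300 to 1000, 77 of 3171 (2.43%) at 1000 to 3000 and 16 of 1232 (1.30%) at 3000 or more. Their median ratio was 1.71, 1.71, 1.74 and 1.80 in the same order. Over the 252 members the difference and the log2 mean level had a Pearson r of 0.125 and a Spearman rho of 0.094, a description across genes that share the same 7 libraries and are not independent replicates.

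The error of a member was larger at low levels. The SE of the kind term for a member had a median of 0.148 at mean levels under 300 and of 0.0636 at 3000 or more. The median SD within a kind fell from 0.184 in the lowest of the 4 level classes to 0.121 in the highest. Over all genes of those classes it fell from 0.257 to 0.131. The SD within a kind has no treatment term, so a response to the mimic enters it. The condition that the kinds do not overlap limits the members' spread, so their SDs and SEs are partly given by the rule. The SD of the difference between members, which the bounds of 0.5 and 1.1 limit at every level, was 0.169, 0.147, 0.168 and 0.177. Of the 44 mirror genes, 23 lay in the lowest class and 1 in the highest.

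**Figure D3:**
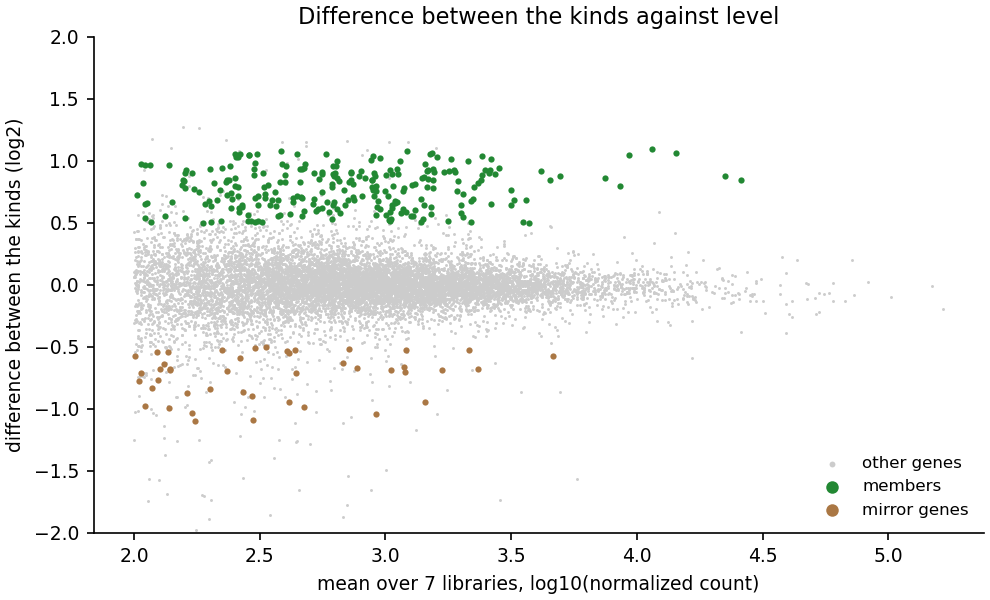
Log2 difference between the first and second kind (vertical axis) against mean normalized count on a log axis (horizontal axis) for each gene with a mean of 100 or more, with the 252 members and the 44 mirror genes marked. The members lie between the bounds of 0.5 and 1.1 by choice, with a median of 0.79, and 27 genes at a difference of 2 or more in either direction are not drawn.

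The same difference was then read separately in the 2 treatments. In the control libraries the members' median was 0.80 (ratio 1.74, range 0.31 to 1.23 on the log2 scale, SD between members 0.18). In the mimic libraries, where a single library stands for the second kind, it was 0.77 (ratio 1.71, range 0.24 to 1.66, SD 0.21). Over the 252 members the values from the 2 treatments had an r of 0.343 and a rho of 0.458. The rule used these same libraries and bounded their combined difference, so the medians, r and rho are partly given by it. They are no measure of how well the difference repeats.

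The rule was also applied to the 4 control libraries alone, and the genes it found were read in the mimic libraries. The mimic libraries took no part in the conditions of that choice, and its mean level of 100 was taken over the control libraries alone. They had been put into their kinds by their own values, so the reading is a description and not an independent check. In this and the following readings the mean level was that of the libraries used for the choice. The shares of all genes set beside them use the mean over all 7 libraries. It found 341 genes with a median log2 difference of 0.75 in the control libraries. In mimic 1 and mimic 2 against mimic 3 the median of the same genes was 0.70 (ratio 1.62, quartiles 0.43 and 0.90), and 240 of them (70.4%) differed by 0.5 or more. Both mimic libraries of the first kind lay above mimic 3 for 291 of the 341 (85.3%), against 30.7% of all genes with a mean of 100 or more. Of the 341, 227 were among the 252 members.

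Applied to the mimic libraries alone, the rule found 440 genes, of which 220 were members. Their median in the control libraries was 0.54 (ratio 1.45), and control 1 and control 2 both lay above control 3 and control 4 for 297 (67.5%), against 19.0% of all genes with a mean of 100 or more. A difference of 0.5 or more was seen for 230 (52.3%). The shares of these readings are not alike in what they ask, since the first sets 2 libraries against 1 and the second 2 against 2.

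In the mirror direction the shares were lower. Of 153 genes lower in the first kind by the rule in the control libraries, 89 (58.2%) were lower in both mimic 1 and mimic 2 than in mimic 3, against 34.5% of all genes, with a median of -0.23. Of 215 so chosen in the mimic libraries, 56 (26.05%) were lower in both control libraries of the first kind than in the others, against 17.5% of all genes, with a median of -0.27.

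Each library was also left out of the choice in turn and then read against the other kind. The median log2 difference in the library left out was 0.79 in control 1, 0.80 in control 2, 0.75 in control 3, 0.63 in control 4, 0.75 in mimic 1, 0.63 in mimic 2 and 0.66 in mimic 3. Since each library had been put into its kind by its own values, the side on which it fell was given beforehand, and only the size is described, at ratios from 1.55 to 1.74. The library left out lay beyond every library of the other kind for 66.1% of the genes chosen in mimic 3 and for 86.8% to 95.1% in the others, against 19.5% of all genes with a mean of 100 or more in mimic 3 and 18.4% to 28.4% in the others. Each library was also read against the others of its own kind, over the genes chosen without it, so the gene sets differ. The median was 0.14 above in control 4, 0.11 above in mimic 3 and 0.13 below in mimic 2. The other libraries were within 0.03 of their own kind. These shifts belong to those gene sets and are not read as traits of the libraries. Over the members, the median difference from the first kind's mean was -0.82 in mimic 3, as in control 3. It was -0.71 in control 4 and -0.070 in mimic 2.

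The numbers in the gene identifiers were not used in the choice. Ordered by them, 61 of the 252 members (24.2%) had another member next to them, against 407 of 10517 other genes (3.87%), and members made up 2.34% of the genes. Members were dense among the numbers 14000 to 15999, with 88 of 653 genes (13.5%) against 164 of 10116 (1.62%) elsewhere. They were not spread evenly there, with 0 members in each run of 100 numbers from 14000 to 14599. Some runs outside that range were dense too, with 8 of 31 genes (25.8%) in 12500 to 12599 and 5 of 35 (14.3%) in 12600 to 12699. The densest run of 100 numbers, 14700 to 14799, held 19 members among 41 genes (46.3%). Over all 41 the median difference was 0.29, with 29 genes higher in the first kind. Its 22 other genes had a median difference of -0.0055, with 10 of them higher in the first kind. That median is partly given by the removal of the members, which were chosen for a higher level. Among the 420 runs of 100 that held 10 or more genes, which cover 235 of the members, the mirror genes reached at most 2 in a run. What neighbouring numbers stand for was not checked here, and no test was made of these counts, which were looked at after the data had been seen.

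The response to the mimic was compared next, since it did not enter the choice directly. The condition that the kinds do not overlap does limit how far a member can move with the mimic, so these counts are not those of an open list. The comparison was fitted in limma over 14503 genes with the treatment and the kind as terms, and a gene is called when its Benjamini-Hochberg adjusted p is under 0.05.

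By limma with Benjamini-Hochberg adjustment, 14 of the 252 members (5.56%) rose and 24 (9.52%) fell, against 9.59% higher and 6.32% lower over all genes tested. Over the tested genes with a mean of 100 or more, which is the level of the members, 12.5% rose and 8.25% fell. In both directions together 38 members were called, and since the choice limits how far a member can move, nothing about the members is read from these shares. The members' median response was -0.08 (fold 0.948, quartiles -0.20 and 0.06, range -0.70 to 0.78), against -0.026 over all genes tested, with a median SE of 0.102 for a single member. A response below 0 was seen for 163 members (64.7%) and for 53.7% of the other genes with a mean of 100 or more. No test was made of the difference between these medians.

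The members that rose had folds from 1.17 to 1.72 (median 1.30) and mean levels from 241 to 25973. Those that fell had folds from 0.615 to 0.867 (median 0.773) and mean levels from 201 to 11435. By level class, from the lowest to the highest, 2, 2, 6 and 4 members rose (3.39%, 2%, 7.79% and 25%). Over all genes of those classes 6.21%, 11.7%, 15.3% and 19.6% rose. In the same order 1, 11, 9 and 3 members fell (1.69%, 11%, 11.7% and 18.8%), against 3.36%, 8.08%, 11.4% and 9.50% of all genes. A change of 1.5-fold or more was called for 2 of the 252 members upward and 1 downward. It was called for 450 and 107 of the 14503 genes tested. Among the 10516 other genes with a mean of 100 or more the counts were 408 and 78. The choice limits how far a member can move, so nothing about the members is read from these counts. The median difference between the kinds was 0.89 for members that rose, 0.73 for those that fell and 0.79 for those not called. Over all members the difference and the response had an r of 0.114 and a rho of 0.134. That difference has no treatment term, and mimic libraries were a larger share of the first kind than of the second. A member's own response thus enters its difference. The order of these medians and the positive r and rho are partly given by this, and no link is read from them.

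How many genes were called rested on single libraries, for the members and also over all genes tested. The member counts come first. Without control 1 there were 7 higher and 10 lower, without control 2 there were 5 and 4, without mimic 1 there were 8 and 12, without mimic 2 there were 7 and 4, and without mimic 3 there were 2 and 3. Without control 3 there were 14 and 29, and without control 4 there were 12 and 17. Over all genes tested, 1391 rose and 916 fell with every library kept. These became 1003 and 494 without control 1, 727 and 210 without control 2, and 997 and 525 without mimic 1. They were 807 and 351 without mimic 2 and 356 and 72 without mimic 3. Without control 3 they were 1468 and 1013, and without control 4 they were 1366 and 818. With the replicate number as a block in place of the kind, 8 members rose (3.17%) and 6 fell (2.38%), against 918 (6.33%) and 365 (2.52%) of all genes tested. All 14 of these members were also called in the fit with the kind. Control 4 has no mimic library of its number, so it adds nothing to the response in the block fit.

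Leaving the kind out of the fit removed every member from the calls. The same limma test without the kind called 2157 genes, of which 0 were members. The residual SD of the median member was 0.477 without the kind and 0.119 with it. Members were chosen for a difference between the kinds, so a fit without the kind holds that difference in their residuals. The lost calls and the wider residuals are thus largely given by the rule. The median response of the members then stood at 0.06 instead of -0.08, since the first kind gave 2 of 4 control libraries and 2 of 3 mimic libraries.

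The member that rose with the smallest p was ENSGALG00000015617. Its normalized counts were 13749 and 13049 in control 1 and control 2 and 23607 and 22990.0 in mimic 1 and mimic 2, and in the second kind they were 7551 and 6685 in control 3 and control 4 and 12060 in mimic 3. Both treatments were apart within each kind, although mimic 3 lay below the control libraries of the first kind. The group means were 10259 ± 3655 in control (SD, n = 4) and 19552 ± 6496 in mimic (SD, n = 3), and the SDs hold the difference between the kinds. The fit gave a log2 response of 0.78 (SE 0.062, 1.72-fold, limma adjusted p = 0.000446). The difference between the plain means of the kinds, without a treatment term, was 1.06 (ratio 2.08). Mimic libraries were a larger share of the first kind than of the second, so part of the rise enters that ratio. Mean counts in control libraries were 13399 in the first kind and 7118 in the second. In mimic libraries they were 23299 in the first kind and 12060 in mimic 3. Under the alternatives the limma adjusted p ran from 7.41e-05 to 0.0825, the last without the kind.

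ENSGALG00000015082, the member with the highest level, also rose. Its log2 response was 0.38 (SE 0.063, 1.30-fold, limma adjusted p = 0.00647), from group means of 21961 ± 6381 in control (SD, n = 4) and 31322 ± 9551 in mimic (SD, n = 3). Mimic 1 and mimic 2 lay above control 1 and control 2, and mimic 3 above control 3 and control 4. The call was lost without mimic 3 (limma adjusted p = 0.0518) and without the kind (0.252), in a range over the alternatives from 0.00177 to 0.252.

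Of the members that fell, ENSGALG00000041052 had 3667 and 3744 normalized counts in control 1 and control 2 and 2474 and 2581 in mimic 1 and mimic 2, and 2264 and 2074 in control 3 and control 4 and 1570 in mimic 3. The treatments were apart in both kinds. The log2 response was -0.52 (SE 0.059, 0.699-fold, limma adjusted p = 0.00158), and the ratio between the kinds, without a treatment term, was 1.57. Its limma adjusted p ran from 0.000477 to 0.347 over the alternatives, with the call lost only without the kind.

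ENSGALG00000026547 had 1015 and 1076 normalized counts in control 1 and control 2 and 779 and 765 in mimic 1 and mimic 2, and 565 and 530 in control 3 and control 4 and 362 in mimic 3. Here too each mimic library lay below the control libraries of its kind. The log2 response was -0.50 (SE 0.077, 0.707-fold, limma adjusted p = 0.00472), and the ratio between the kinds, without a treatment term, was 1.88. The call was lost without mimic 3 (limma adjusted p = 0.0664) and without the kind (0.571), in a range from 0.00140 to 0.571. The member nearest the median difference, ENSGALG00000014891, was not called (log2 response 0.10, SE 0.067, limma adjusted p = 0.328).

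**Figure D4:**
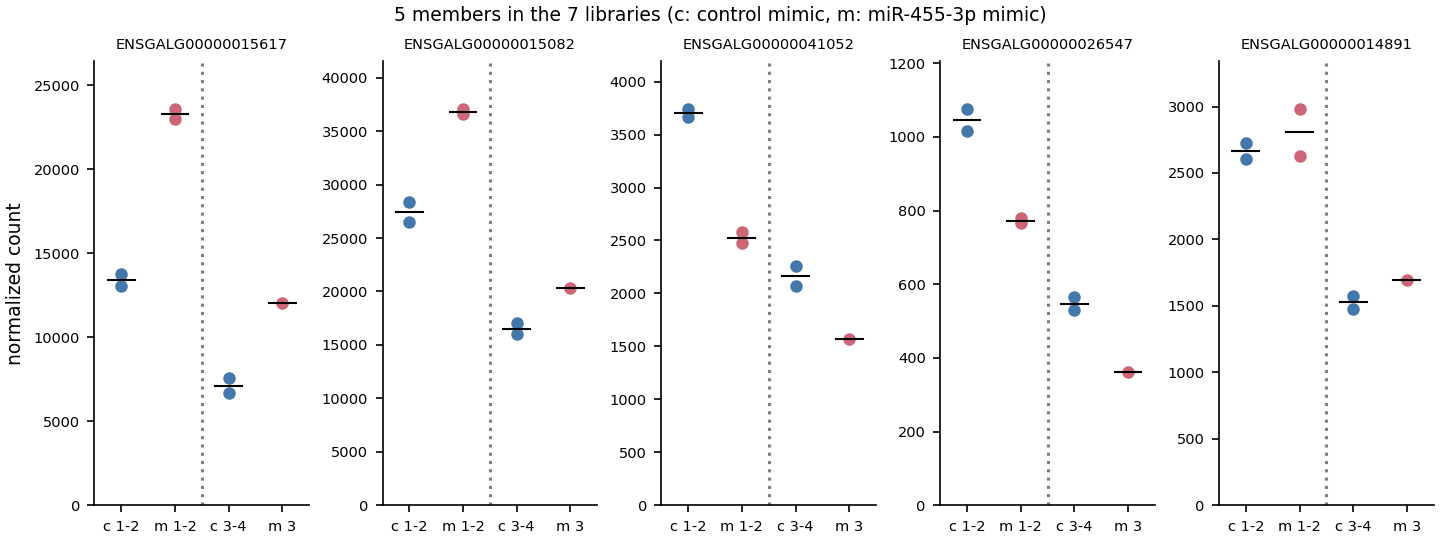
Normalized count (vertical axis, from 0) for 5 members, with a point for each of the 7 libraries placed by kind and treatment (c for control, m for mimic) and lines at their means. In the 2 members that rose and the 2 that fell the treatments are apart within each kind, and in ENSGALG00000014891 they are not apart in the first kind.

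Within the first kind, 2 control and 2 mimic libraries were compared, and within the second 2 control libraries and mimic 3, using one limma fit with a term for each kind and treatment. The spread of the lone mimic library of the second kind was assumed to be that of the other groups. In the first kind 2 members rose and 1 fell, against 2.32% and 0.427% of all genes tested. In the second kind 1 member rose and 0 fell, against 0.524% and 0.0207%. The members' median response was -0.08 (fold 0.948, 162 of 252 below 0, median SE 0.135) in the first kind and -0.06 (fold 0.960, 156 below 0, median SE 0.166) in the second. For ENSGALG00000015617, the log2 response was 0.80 in the first kind (limma adjusted p = 0.0119) and 0.76 in the second (limma adjusted p = 0.0432), the latter from mimic 3 alone with a spread borrowed from the other groups.

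A difference in response between the kinds was not detectable for any member at this number of libraries. The limma interaction test called 0 members (smallest adjusted p = 1.00), against 0.0345% of all genes tested. At an unadjusted p under 0.05 it gave 7 members (2.78%), against 2.43% of all genes tested. The differences in log2 response ran from -0.68 to 1.07 with a median of -0.0083 and a median SE of 0.214, larger than the median response itself.

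The response had the same sign in both kinds for 188 members (74.6%) and for 8318 of 10516 other genes (79.1%). All 38 called members were among the 188, which a call over both kinds together favours. The r between the responses in the kinds was 0.570 (rho 0.597) over the members and 0.614 (rho 0.702) over the other genes, and genes in the same libraries are not independent. All 14 members that rose had treatments that were apart in both kinds, as had 23 of the 24 that fell, a property that the call favours. In 3 members the change with the mimic within at least 1 of the kinds was larger than the difference between the kinds.

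**Figure D5:**
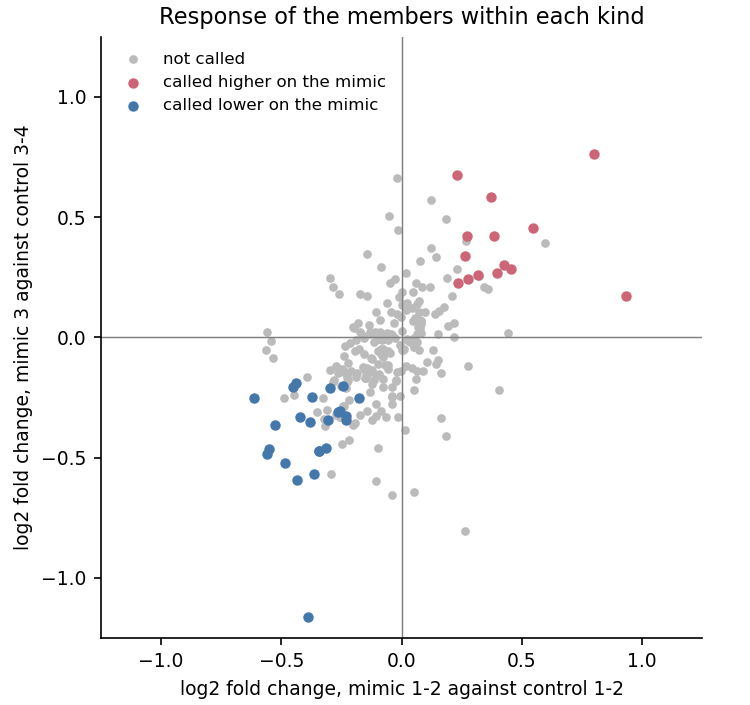
Log2 response to the mimic in the second kind (vertical axis, mimic 3 against control 3 and control 4) against that in the first kind (horizontal axis, mimic 1 and mimic 2 against control 1 and control 2) for each member. Called members are marked by direction, and all 38 lie in the quadrants of shared sign, which the call favours. The medians are -0.08 in the first kind and -0.06 in the second.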

How the data were processed

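Total RNA of 7 chick limb bud samples had been sequenced. The build GRCg6a and the tools kallisto, sleuth, Trim Galore and FastQC are credited to the submitters' notes, which give no versions. The deposited values are a signal, normalized counts per gene scaled by the authors between libraries and not whole. A whole number of reads was recovered for only 52.3% to 53.2% of values (tolerance 0.001), so no count model was used. Depth was estimated as a library's total divided by the value that stood for 1 read at its lowest values.

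The member genes, the kinds of library, the lists and the tests were chosen with earlier results of these data known. Values were used as log2(value + 0.5), which understates changes of low genes. The filter kept genes that reached 5 in 3 libraries, and limma 3.58.1 (R 4.3.3) was used for each test (empirical Bayes with trend, two-sided, Benjamini-Hochberg over all genes tested), with treatment and kind as terms, and the interaction in a fit with a mean for each kind and treatment. The scripts were tested on simulated data. The genes named were, by rule, the 2 members that rose and the 2 that fell with the smallest p among those called, the member of highest level and, at a mean of 1000 or more, the member nearest the median difference.

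Replicate numbers are shared by the groups, and same-numbered libraries deviated together (r = 0.173, 0.162 and 0.412 over genes), so counts that move in a fit blocked on this number are given with it. Libraries of different numbers were not compared in this way, so these r values do not set same-numbered libraries apart from others. Any such pairing comes from the values alone, and numbers 1 and 2 belong to the first kind and 3 to the second. With the kind removed the r values were -0.279, -0.238 and -0.445. Residuals of that fit cancel out within each kind and within each treatment, which alone pulls these r values toward the negative side. They therefore do not decide whether same-numbered libraries are pairs. No libraries were identical (lowest chi-square per gene 9.55, control 1 against control 2). Alternatives were another pseudocount, filter, scaling, moderation, library weights, covariate or block, other bounds of the choice, and each library left out.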

Additional observations from a re-analysis of the deposited data

Results flagged for a closer look

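The response to the mimic differed between the first and the second kind of library, by the limma interaction test at an adjusted p under 0.05, for 5 of 14503 genes tested. Of these, 0 were among the 252 members. A single mimic library stood for the second kind in this test.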

How the results depend on the processing

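The members numbered 488, with a median log2 difference of 0.53, without bounds, and the median was 0.73 where overlap was allowed. With a library left out of the choice it ran from 0.70 (without mimic 3) to 0.78. For genes chosen in the mimic libraries, the median in the control libraries was 0.44 at a mean minimum of 50. The 2307 genes called, of which 14 members rose and 24 fell, became 1095, 5 and 4 without the trend. With library weights 3487 genes were called, and 41 members fell. Without the kind 0 members rose and 0 fell, which the choice of members by kind largely gives. With the replicate block there were 1283 genes, 8 and 6. With a library left out, the genes called ran from 428 (without mimic 3) to 2481 (without control 3), the risen members from 2 to 14 and the fallen from 3 to 29. The first kind alone, an alternative chosen after seeing the data, gave 826 genes, 7 and 8. The response in the second kind and the interaction have no value without mimic 3. The 4 called genes named kept their sign in all 19 alternatives, and lost their call where stated. The block changed no call of a named gene. The cause of the other changes was not tested. Estimated depth ran from 14879929 reads in control 3 to 21363143 in control 4, and the number of libraries, with a lone mimic library in the second kind, limits what can be seen.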
